A study of Homo sapiens with 6 samples.

Results

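The chaperone genes of MIA PaCa-2 cells, an established human pancreatic cancer line, were examined for a difference between LINC00901 knockout cells, which lack a long non-coding RNA by their label, and vector control cells. The chaperones taken here are the heat shock proteins, the J-domain proteins of the DNAJA, DNAJB and DNAJC classes, and the CCT chaperonin with its subunit TCP1. They were chosen by gene symbol (HSPA, HSPB, HSPD, HSPE, HSPH, HSP90, DNAJA to DNAJC, CCT2 to CCT8 and TCP1) and by reaching 1 FPKM in 3 or more of the 6 libraries. FPKM counts fragments relative to transcript length and to all fragments of the library. Of 82 rows with such a symbol, 60 reached that level, out of 9624 rows of the whole table that did. Among the 60, 9 rows join the symbols of overlapping or neighbouring genes, and those described below are given with all their symbols. The lowest rows inside the limit included DNAJC18;ECSCR, at 1.25, 1.02 and 0.97 FPKM in the KO libraries and 0.90, 0.95 and 1.05 FPKM in the vector controls. Just outside it lay DNAJC24, at 0.92, 1.21 and 0.76 FPKM in the KO libraries and 0.87, 0.55 and 0.68 FPKM in the vector controls.

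Total RNA was sequenced from 3 libraries of LINC00901 knockout cells (KO 1 to 3) and 3 libraries of vector control cells, labelled LCV2 (vector control 1 to 3). Both groups are MIA PaCa-2 grown in DMEM with bovine and horse serum, and no treatment is given. The labels do not say whether the knockout is 1 clone or a pool, nor whether the libraries came from separate cultures, so p-values reflect only how these samples vary, and that variation may be technical. LINC00901 was not analysed here, since 0 rows of the table name it, and every direction rests on the labels.

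Chaperones bind unfolded or newly made proteins and help them fold. HSP70 proteins (HSPA) hold and release stretches of unfolded chain in cycles driven by ATP, J-domain proteins bring clients to them and start ATP hydrolysis, and HSP110 proteins exchange the nucleotide. HSP90 matures kinases and steroid receptors, small heat shock proteins (HSPB) hold aggregating proteins, HSPD1 with HSPE1 forms the folding chamber of mitochondria, and CCT forms that of the cytosol, whose best known clients are actin and tubulin. In stressed cells heat shock factor HSF1 induces many cytosolic chaperones, whereas the unfolded protein response induces those of the endoplasmic reticulum (ER), such as HSPA5.

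The promoters of 4 genes on which the results turn are shown first, as the 250 bases before the RefSeq gene start on GRCh38.p14, 5′ to 3′ on the gene's own strand. DNAJC8 was named by the rule that chose the genes and was the single chaperone gene that passed the test. The genes were chosen with earlier results of these data known, so DNAJC8 was not a blind choice. It is shown with the E-box letters CACGTG in capitals. HSPA5 and HSP90B1 are shown as ER chaperones with the ER stress response element in capitals, that is CCAAT and CCACG with 9 bases of any kind between them, on either strand. HSPA8, the constitutive HSP70, is shown with the heat shock element triplets in capitals, that is GAA, TTC and GAA, or TTC, GAA and TTC, each separated by 2 bases of any kind.
DNAJC8, chr1:28233030-28233279, minus strand: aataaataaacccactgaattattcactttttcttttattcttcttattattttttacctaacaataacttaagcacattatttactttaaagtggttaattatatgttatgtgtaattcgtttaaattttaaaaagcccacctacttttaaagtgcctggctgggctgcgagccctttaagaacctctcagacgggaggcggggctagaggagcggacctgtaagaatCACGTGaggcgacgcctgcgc
HSPA5, chr9:125241344-125241593, minus strand: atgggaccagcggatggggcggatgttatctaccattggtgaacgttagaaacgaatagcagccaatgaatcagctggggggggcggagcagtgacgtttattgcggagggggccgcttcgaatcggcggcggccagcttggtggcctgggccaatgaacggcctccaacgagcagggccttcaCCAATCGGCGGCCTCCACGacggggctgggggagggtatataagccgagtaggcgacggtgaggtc
HSP90B1, chr12:103930160-103930409, plus strand: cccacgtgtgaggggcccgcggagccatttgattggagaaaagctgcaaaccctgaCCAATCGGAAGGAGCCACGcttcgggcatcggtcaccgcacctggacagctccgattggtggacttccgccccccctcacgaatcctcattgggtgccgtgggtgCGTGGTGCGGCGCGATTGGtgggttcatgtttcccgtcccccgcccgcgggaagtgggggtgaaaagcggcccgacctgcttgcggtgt
HSPA8, chr11:123062137-123062386, minus strand: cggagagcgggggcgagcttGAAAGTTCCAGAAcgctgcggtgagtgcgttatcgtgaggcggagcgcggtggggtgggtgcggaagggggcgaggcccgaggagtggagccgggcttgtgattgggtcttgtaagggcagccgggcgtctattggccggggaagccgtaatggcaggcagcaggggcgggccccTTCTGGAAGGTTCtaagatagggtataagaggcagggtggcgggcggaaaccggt

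Of the 60 rows, 55 had a RefSeq promoter, and HSPB11, HSPA14, CCT6A, DNAJC1 and DNAJC22 did not enter the search. The ER stress response element was found in 2 of the 55, HSPA5 and HSP90B1, and in 22 of 27305 promoters of all genes (0.0806%). In HSPA5 it began 66 bases before the gene start, and in HSP90B1 at 194 and 89 bases. The heat shock element triplet was found in HSPA8, at 230 and 55 bases before the start, and in DNAJB6, against 120 of all promoters (0.439%). The shorter pair GAANNTTC or TTCNNGAA, which every triplet contains, was in 7 of the 55 (12.7%) and in 11.7% of all promoters. CACGTG was in 7 of the 55 (12.7%), DNAJC8 among them at 21 bases before the start, and in 6.49% of all promoters. Among promoters of tested genes only, the shares were 0.153% for the ER stress response element, 0.248% for the triplet, 8.24% for the pair and 9.3% for CACGTG. All of these are matches of letters on both strands and no binding was measured.

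DNAJC8, named by the rule with earlier results of these data known, was lower in all 3 knockout libraries. This gene encodes a nuclear J-domain protein found with the splicing machinery. It stood at 8.18, 7.75 and 8.80 FPKM in KO 1 to 3 and at 34.99, 32.67 and 34.20 FPKM in vector control 1 to 3. The groups did not overlap, and the values within each group lay close together. The means were 8.24 ± 0.528 FPKM in KO and 34.0 ± 1.18 FPKM in vector control (SD, n = 3 each), so the KO level was 0.243 of the control level. On the log2(FPKM + 1) scale the fold change was -1.92 (SE 0.134, 95% interval -2.24 to -1.61, limma adjusted p = 0.00177). By p-value it ranked 8 among the 9624 tested genes. Leaving out each library in turn gave log2 fold changes from -1.96 to -1.88, all past the threshold. In bulk RNA, fewer cells with the transcript and less of it per cell cannot be told apart. GENCODE 29 names 1 pseudogene for DNAJC8, and the assignment of reads shared with it is not stated.

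**Figure D1:**
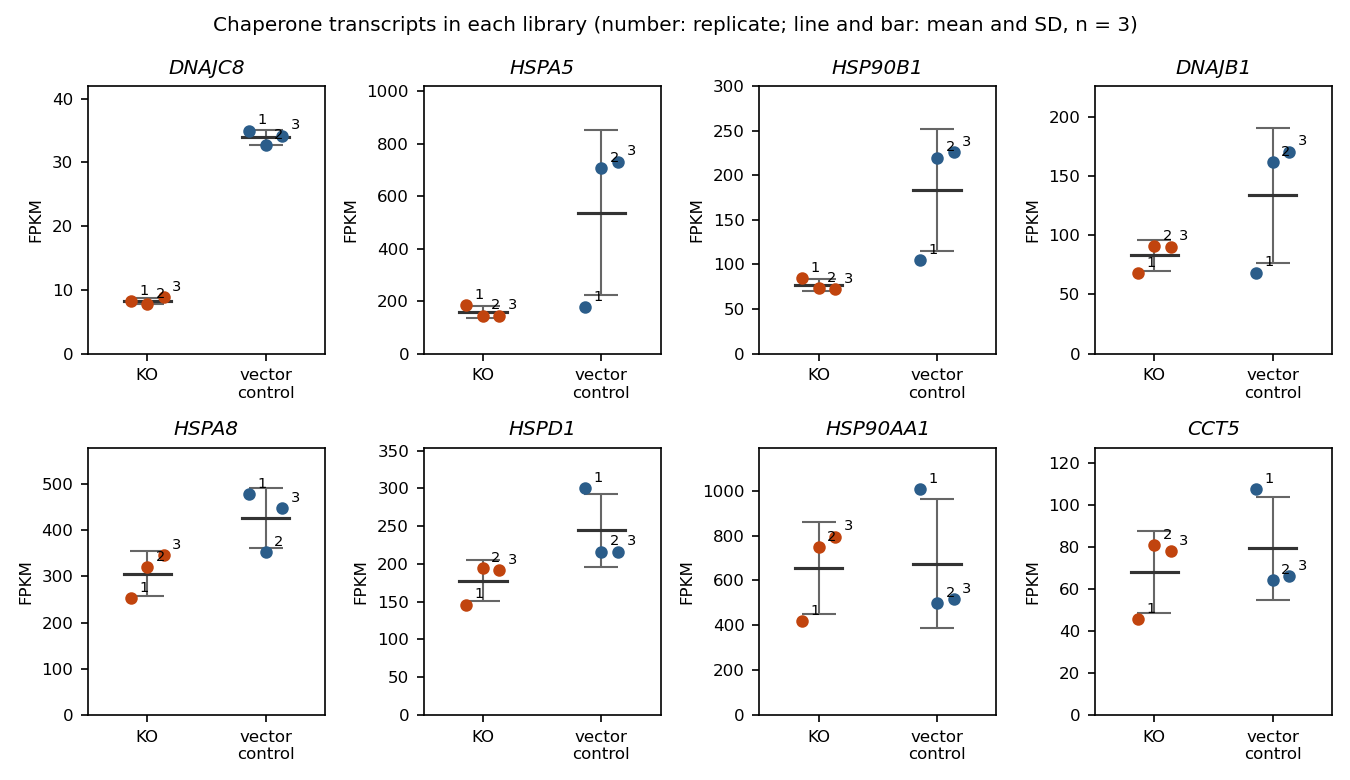
FPKM of 8 chaperone genes in each KO and vector control library (points, numbered by replicate), with the mean and SD (n = 3 per group). DNAJC8 separates the groups with little spread, at 7.75 to 8.80 FPKM in KO against 32.67 to 34.99 FPKM in vector control. In HSPA5, HSP90B1 and DNAJB1 vector control 2 and 3 stand above the other libraries. In HSPA8, HSPD1, HSP90AA1 and CCT5 vector control 1 is the highest and KO 1 the lowest.

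Of the 20 nearest protein-coding genes in GENCODE 29 order on chromosome 1, 10 on each side, 16 were tested and 0 were called by limma (1.35% of all tested genes), while 5 had an unadjusted p below 0.05, all higher in KO (17.5% of all in either direction). Their log2 fold changes ran from -0.30 (GMEB1) to 1.43 (MED18), with a median of 0.23. EYA3, the nearest tested gene on one side, stood at 7.62, 7.21 and 7.56 FPKM in KO and 7.30, 6.50 and 5.31 FPKM in vector control. ATP5IF1, next on the other side, stood at 17.70, 12.79 and 11.56 FPKM in KO and 11.33, 15.06 and 15.25 FPKM in vector control. The values of both genes overlapped between the groups. These neighbours were chosen after the value of DNAJC8 was seen.

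**Figure D2:**
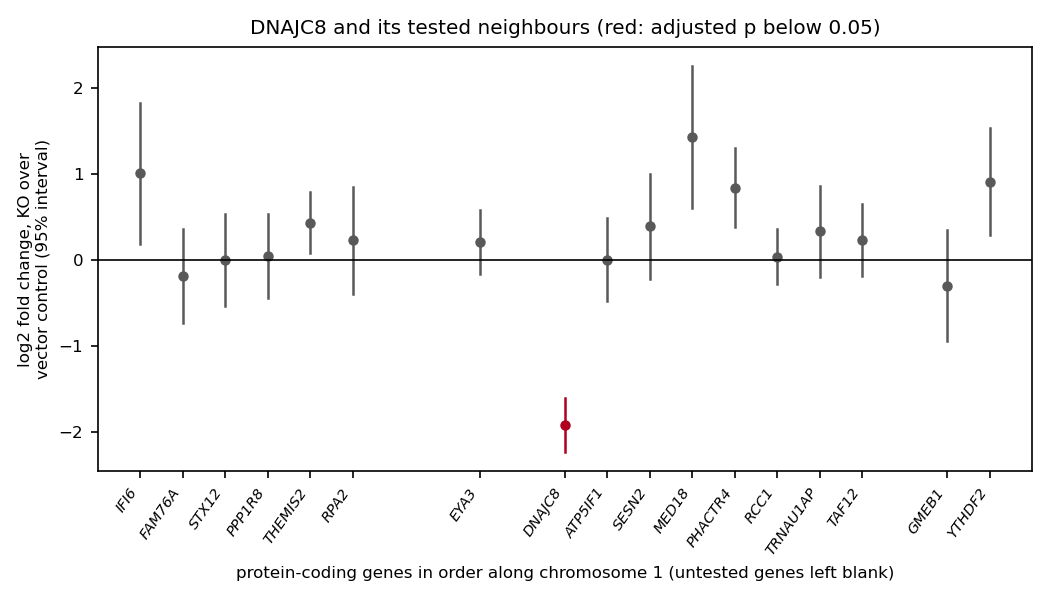
Log2 fold change, KO over vector control, of DNAJC8 and its tested neighbours in their order along chromosome 1, with 95% intervals from limma. DNAJC8, at -1.92, is the single gene past the threshold, and the neighbours lie between -0.30 and 1.43.

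DNAJC8 was the single chaperone row past the threshold. Of the 60, 1 was lower, 0 were higher and 59 did not pass. Over all tested genes limma called 1.35%, of which 0.842% were lower and 0.509% higher in KO. The share among the chaperones is near that background. Unadjusted, 10 of the 60 had p below 0.05, and 17.5% of all tested genes did. The KO values lay wholly below the vector control values in 9 of the 60 (15.0%, against 8.35% of all tested genes) and wholly above them in 5 (8.33%, against 15.4%), 14 in either direction, where 23.8% of all tested genes separated. The median log2 fold change of the 60 was -0.04, beside 0.08 for all tested genes. That of the 60 was 0.11 without vector control 1 and 0.042 without KO 1. In the fit without vector control 1, 6 of the 60 were called lower (5.07% of all tested genes) and 2 higher (8.74% of all). With any other library left out, DNAJC8 was the only row of the 60 called. With array weights 25 were called, 9 lower and 16 higher, where 41.8% of all tested genes were. No row was at 1 FPKM or above in 1 group only, and 54 of the 60 were at 1 FPKM or above in every library.

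The libraries differed within each group, which bears on most of what follows. Vector control 2 and 3 correlated at r = 0.979 across tested genes, while vector control 1 correlated at r = 0.904 with vector control 2 and at r = 0.932 with KO 3. Genes are not independent replicates, so these values describe the libraries only. The 60 chaperone rows together made up 2.48%, 3.0% and 3.07% of the FPKM sum in KO 1 to 3, and 3.60%, 3.40% and 3.48% in vector control 1 to 3. The KO libraries lay below the vector controls in this share, and KO 1 was the lowest. HSPA5 alone made 144.21 and 144.70 of the 3910.4 and 3971.1 FPKM summed in KO 2 and 3. In vector control 2 and 3 it made 704.91 and 730.68 of 4419.7 and 4680.7 FPKM. The order of the shares therefore does not describe the rows as a group. HSP90AB1, HSP90AA1 and HSPA8 were the most abundant of the rows. The labels call the cells epithelial. KRT18, KRT19 and VIM were present at 12.69 FPKM or above in every library, and the joined row KRT8;KRT78 at 7.23 to 19.76 FPKM. KRT7 stood at 0.04 to 0.11 FPKM, and CDH1 and EPCAM, which define epithelium, stood at 0.14 FPKM or below. The 6 epithelial markers summed to 51.12 to 97.44 FPKM in KO and 114.6 to 137.0 FPKM in vector control. Of 5 leukocyte markers 3 were listed at 0 in every library, PTPRC and CD3E among them, and 1 reached 1 FPKM, in the joined row CD68;EIF4A1;SENP3 at 35.13 to 51.58 FPKM. Of 5 fibroblast markers DCN was listed at 0 in every library, while COL1A2 stood at 51.58, 56.18 and 50.63 FPKM in KO and 24.72, 35.84 and 34.30 FPKM in vector control, and COL1A1 between 0.96 and 3.95 FPKM. The 3 endothelial markers stayed below 1 FPKM, VWF at 0 throughout and CDH5 at 0 in KO and 0.33, 0.17 and 0.14 FPKM in vector control. Of 5 neuroendocrine markers GCG was at 0 throughout and 1 reached 1 FPKM, in the joined row IGF2;INS;INS-IGF2, at 8.57, 4.07 and 3.95 FPKM in KO and 9.58, 28.43 and 28.37 FPKM in vector control. None of 4 acinar markers reached 1 FPKM. The part of these marker differences in the chaperone values was not tested.

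**Figure D3:**
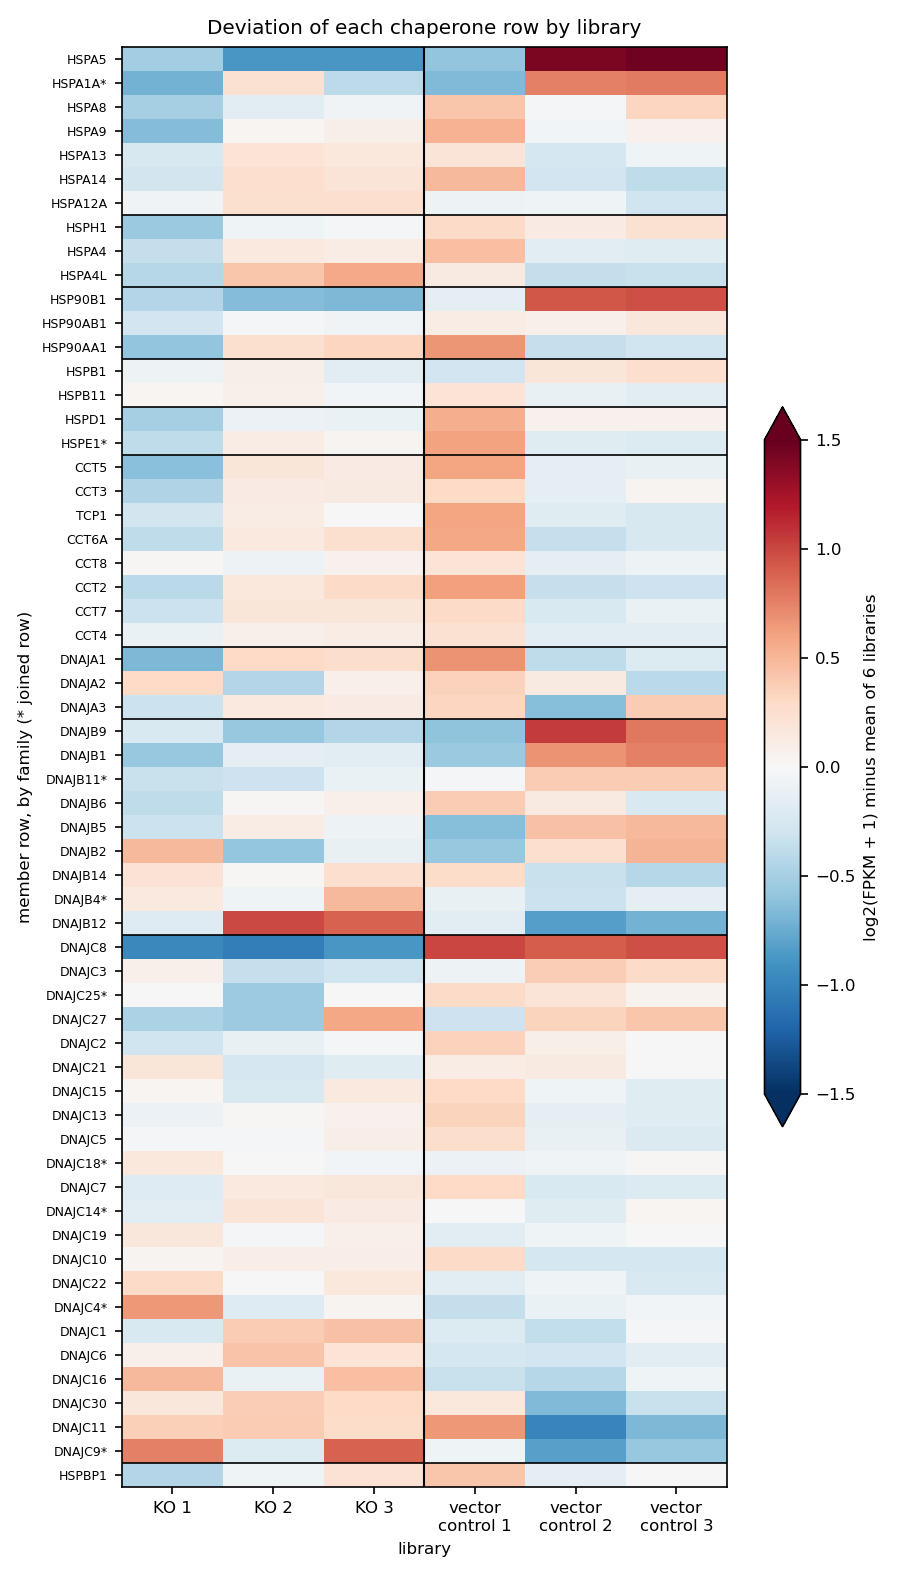
Each of the 60 chaperone rows (by family, joined rows with an asterisk) in the 3 KO and 3 vector control libraries, as log2(FPKM + 1) minus the row's mean over the 6 libraries. DNAJC8 is blue in all KO and red in all vector control libraries, HSPA5, HSP90B1, DNAJB9 and DNAJB1 are red in vector control 2 and 3, and the CCT rows are reddest in vector control 1.

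HSPA5, the main HSP70 of the ER (also called BiP), had the largest difference of means among the HSPA genes, but 1 control library stood with the knockout. It stood at 183.76, 144.21 and 144.70 FPKM in KO 1 to 3 and at 175.56, 704.91 and 730.68 FPKM in vector control 1 to 3. Vector control 2 and 3 were high, and vector control 1 lay within the KO range. The means were 158 ± 22.7 FPKM in KO and 537 ± 313 FPKM in vector control (SD, n = 3 each). The log2 fold change was -1.51 (95% interval -2.75 to -0.28) with limma adjusted p = 0.217, so it did not pass. Without vector control 1 the fold change was -2.19 (adjusted p = 0.00327). It was -1.19 without vector control 2 (limma adjusted p = 0.512) and -1.16 without vector control 3 (limma adjusted p = 0.536).

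In several other ER chaperones vector control 2 and 3 were also the highest libraries, while the place of vector control 1 varied. HSP90B1, the HSP90 of the ER, stood at 84.50, 73.25 and 71.99 FPKM in KO and at 105.05, 219.93 and 226.34 FPKM in vector control. Its groups did not overlap, though vector control 1 lay nearer to KO 1 than to the other controls (log2 fold change -1.17, 95% interval -1.88 to -0.47, limma adjusted p = 0.135). DNAJB9, a J-domain partner of HSPA5, stood at 6.42, 4.84 and 5.41 FPKM in KO and at 4.73, 16.98 and 13.99 FPKM in vector control (-0.82, adjusted p = 0.347). The mean of vector control 2 and 3 over vector control 1 was 4.09 for HSPA5, 2.12 for HSP90B1 and 3.27 for DNAJB9. DNAJB11;AC068631 stood at 7.14, 7.30 and 8.61 FPKM in KO and at 9.15, 12.43 and 12.36 FPKM in vector control, with no overlap (-0.50, adjusted p = 0.218). DNAJC3, an ER partner of HSPA5, stood at 9.96, 7.22 and 7.49 FPKM in KO and 8.88, 12.46 and 11.71 FPKM in vector control, which overlapped.

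In a list of 15 ER chaperones, 8 of them among the 60 rows, vector control 2 and 3 both stood above the other 4 libraries in 9, or 60.0%, where 14.8% of all tested genes did. Among the 60 chaperone rows this order was seen in 15.0%, close to that share. Of the 15, limma called 0 (1.35% of all tested genes) and 8 had an unadjusted p below 0.05 (17.5% of all), and their median log2 fold change was -0.50. Without vector control 1, 8 of the 15 were called, all lower in KO, against 5.07% of all tested genes called lower in that fit. They were HSPA5, HSP90B1, DNAJB9, DNAJB11;AC068631, CALR, PDIA4, PDIA6 and SDF2L1. Leaving out any other library gave 0 calls among the 15. CALR, a lectin chaperone of the ER, stood at 270.01, 193.99 and 200.33 FPKM in KO and at 234.77, 529.81 and 571.67 FPKM in vector control. HYOU1, the nucleotide exchange factor of HSPA5, stood at 20.85, 18.89 and 18.38 FPKM in KO and 20.49, 20.19 and 24.86 FPKM in vector control, with a log2 fold change of -0.16. HSPA13, an HSP70 of the ER membrane, had 0.09 and DNAJC10, a disulfide reductase, 0.17. In these 3 genes vector control 2 and 3 were not both above the rest. The ER stress response element named above was in 4 of the 14 promoters found for the list, those of HSPA5, HSP90B1, CALR and CANX, and in 0.153% of the promoters of tested genes. A second form, ATTGG and CCACG with 1 base between, was in HYOU1 and SDF2L1 (0.118% of tested promoters). CANX, highest in vector control 1 at 179.57 FPKM, and HYOU1 lacked the library order above. DNAJB9, DNAJB11;AC068631, DNAJC3, PDIA4 and PDIA6 had that order and neither element. A link between element and order was not tested.

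Stress-inducible chaperones of the cytosol were divided between the library orders. DNAJB1, the main inducible J-domain partner of HSP70, stood at 68.14, 91.29 and 90.52 FPKM in KO and at 68.44, 162.40 and 171.14 FPKM in vector control. Vector control 1 lay within the KO range, as in HSPA5 (log2 fold change -0.58, limma adjusted p = 0.438, or -1.0 and 0.0214 without vector control 1). The fold change of DNAJB1 was -0.39 without vector control 2 (limma adjusted p = 0.765) and -0.35 without vector control 3 (limma adjusted p = 0.79). The joined row HSPA1B;HSPA1A;C6orf48 holds the stress-inducible HSP70 genes, which are near-identical, and an unrelated neighbour. It stood at 12.49, 24.84 and 15.83 FPKM in KO and at 12.96, 36.17 and 36.90 FPKM in vector control (-0.58, adjusted p = 0.525). HSPB1, the small heat shock protein HSP27, stood at 84.18, 94.52 and 78.42 FPKM in KO and at 72.53, 100.51 and 106.03 FPKM in vector control, which overlapped (-0.10, 95% interval -0.54 to 0.34). HSPA6, an HSP70 known to be made under strong stress, was below the limit at 0.41, 0.25 and 0.05 FPKM in KO and 0.07, 0.77 and 0.80 FPKM in vector control.

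HSPA8, which serves folding and clathrin uncoating, stood at 252.33, 319.29 and 345.97 FPKM in KO and at 477.60, 353.01 and 447.55 FPKM in vector control. The groups did not overlap, but the gap between KO 3 and vector control 2 was small beside the spread in either group (-0.48, 95% interval -0.92 to -0.03, limma adjusted p = 0.257). HSPH1, an HSP110 protein, stood at 20.96, 30.01 and 30.79 FPKM in KO and 38.54, 34.24 and 36.84 FPKM in vector control (-0.43, 95% interval -0.86 to 0.00256, adjusted p = 0.287). HSP90AB1, the constitutive cytosolic HSP90 and the most abundant of the rows, stood at 806.52, 979.74 and 949.02 FPKM in KO and 1065.31, 1045.47 and 1112.87 FPKM in vector control (-0.24, 95% interval -0.58 to 0.10, adjusted p = 0.433). All 3 had every KO library below every control library without passing the test. In HSPA8 and HSPH1 vector control 1 was the highest and KO 1 the lowest library. HSP90AA1, the inducible HSP90, had these extremes too, but its groups overlapped. It stood at 419.64, 749.11 and 794.94 FPKM in KO and 1006.20, 500.51 and 515.45 FPKM in vector control (-0.02, 95% interval -0.85 to 0.81). Its direction turned with quantile normalization, at 0.18.

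In a list of 23 genes known as HSF1 targets, 20 were tested, 15 of them among the 60 rows, and limma called 0 (1.35% of all tested genes), while 3 had an unadjusted p below 0.05 (17.5% of all). The list had a median log2 fold change of -0.17, and of -0.073 without KO 1. KO values lay wholly below vector control values in 7 of the 20 (35.0%, against 8.35% of all tested genes) and wholly above in 1 (5.0%, against 15.4%). Besides HSPA8, HSPH1, HSP90AB1 and HSPD1 these were the HSP90 co-chaperones CHORDC1, STIP1 and FKBP4. In 17 of the 20, KO 1 was the lowest library (85.0%, against 15.5% of all tested genes). HSF1 itself stood at 6.56, 10.28 and 8.84 FPKM in KO and 7.04, 7.89 and 9.69 FPKM in vector control (log2 fold change 0.05).

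The folding chambers followed vector control 1 and KO 1. Vector control 1 was the highest library in 8 of 8 CCT rows, against 23.4% of all tested genes, and KO 1 was the lowest in 6 of them, against 15.5%. Both held in 6 of 8 (75.0%), where they did in 6.32% of all tested genes and in 17 of the 60 chaperone rows (28.3%). The summed FPKM of the CCT rows was 640.62, 817.39 and 837.01 in KO 1 to 3 and 981.39, 664.83 and 694.69 in vector control 1 to 3. CCT5 had the lowest fold change of the 8 and stood at 45.69, 80.83 and 77.82 FPKM in KO and 107.60, 64.18 and 66.09 FPKM in vector control (-0.22, 95% interval -0.90 to 0.47, limma adjusted p = 0.737). CCT4, the most abundant, stood at 232.81, 264.24 and 271.00 FPKM in KO and 294.18, 222.44 and 224.78 FPKM in vector control (0.06, and -0.034 after median scaling). Of the 8 rows limma called 0 (1.35% of all tested genes), 0 had an unadjusted p below 0.05 (17.5% of all), and in 0 did the groups separate (23.8% of all), and with 8 rows a count of 0 calls is near the background. Their median log2 fold change was 0.00119.

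HSPD1, the mitochondrial HSP60, stood at 146.09, 194.52 and 191.72 FPKM in KO and at 300.10, 216.25 and 216.36 FPKM in vector control. The KO libraries lay below all controls, with vector control 1 far above the other 2 (-0.45, 95% interval -0.92 to 0.01, limma adjusted p = 0.296). The joined row HSPE1;MOB4;HSPE1-MOB4, with its co-chaperonin HSP10, stood at 13.39, 19.26 and 18.17 FPKM in KO and 27.52, 15.52 and 15.22 FPKM in vector control, which overlapped (-0.15, adjusted p = 0.805). HSPA9, the mitochondrial HSP70, stood at 38.30, 61.82 and 64.37 FPKM in KO and 87.73, 58.94 and 63.54 FPKM in vector control (-0.36, adjusted p = 0.496). In all 3 rows vector control 1 was the highest and KO 1 the lowest library. HSPD1 and HSPA8 have 17 pseudogenes each and HSPE1 has 26 in GENCODE 29, so their values depend on how shared reads were assigned.

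Replication-dependent histone genes had a like order of libraries. Their share of the FPKM sum was 3.03%, 5.21% and 5.25% in KO 1 to 3 and 6.28%, 2.83% and 3.29% in vector control 1 to 3. The CCT medians, as log2(FPKM + 1) minus the mean of the 3 controls, were -0.36, 0.09 and 0.11 in KO 1 to 3 and 0.39, -0.22 and -0.17 in vector control 1 to 3. The part of this division of the libraries in the chaperone values was not tested.

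The remaining HSP70 and HSP110 genes did not pass the test. HSPA4, an HSP110 exchange factor, stood at 66.5 ± 12.6 FPKM in KO and 70.1 ± 18.8 FPKM in vector control (-0.06, 0.056 after quantile normalization). HSPA4L, of the same class, stood at 2.97 ± 1.31 FPKM in KO and 1.98 ± 0.607 FPKM in vector control (0.37, 95% interval -0.31 to 1.05). HSPA12A, a distant HSP70, stood at 1.12, 1.60 and 1.62 FPKM in KO and 1.08, 1.11 and 0.78 FPKM in vector control, which touched without overlap (0.30, limma adjusted p = 0.362). HSPA14, a ribosome-associated HSP70, had 0.11. HSPBP1, which matches by symbol but is an exchange factor of HSP70, stood at 7.13 ± 1.82 FPKM in KO and 8.23 ± 1.93 FPKM in vector control (-0.19). HSPB11, now known as the ciliary transport protein IFT25, stood at 6.28 ± 0.306 FPKM in KO and 6.12 ± 1.0 FPKM in vector control (0.04, and -0.040 after median scaling; SD, n = 3 each).

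Of the 34 J-domain rows, DNAJC8 was the single call (1 lower and 0 higher, against 0.842% and 0.509% of all tested genes), and their median log2 fold change was 0.02 beside 0.08 for all tested genes. The DNAJA genes, full partners of HSP70 in the cytosol and, for DNAJA3, in mitochondria, had fold changes of -0.07 for DNAJA1, -0.05 for DNAJA2 and -0.04 for DNAJA3. DNAJA1 stood at 8.92, 18.47 and 18.00 FPKM in KO and 24.20, 11.15 and 12.74 FPKM in vector control, the order of the CCT rows. DNAJA2 averaged 24.4 ± 6.30 FPKM in KO and 25.3 ± 6.55 FPKM in vector control (SD, n = 3 each), and its direction turned with quantile normalization, at 0.054.

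Among the DNAJB rows DNAJB12, an ER membrane protein that works in degradation, had the highest fold change. It stood at 2.75, 7.49 and 6.90 FPKM in KO and at 2.82, 1.42 and 1.62 FPKM in vector control. KO 2 and 3 were high, whereas KO 1 lay just below vector control 1, so the groups overlapped (1.12, 95% interval 0.31 to 1.94, limma adjusted p = 0.181). DNAJB6, which holds polyglutamine proteins, stood at 4.39, 6.09 and 6.38 FPKM in KO and 8.16, 6.73 and 4.98 FPKM in vector control (-0.20). DNAJB14, a relative of DNAJB12, had 0.32 and DNAJB4;GIPC2 had 0.38, the second with every KO library above every control.

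The 22 DNAJC rows are a diverse class in which the J-domain is joined to other functions. Apart from DNAJC8 their fold changes ran from -0.38 for DNAJC3 to 0.96 for MRPS16;DNAJC9, with 14 of the 22 above 0 and a median of 0.09. MRPS16;DNAJC9 joins a mitochondrial ribosomal protein gene to a histone chaperone gene and stood at 9.95, 4.61 and 10.97 FPKM in KO and 5.18, 2.69 and 3.36 FPKM in vector control (0.96, limma adjusted p = 0.215). DNAJC30, a mitochondrial J-domain protein, stood at 6.10, 7.18 and 6.78 FPKM in KO and 6.04, 3.0 and 4.03 FPKM in vector control. The groups separated by little, since vector control 1 lay just below KO 1 (0.56, adjusted p = 0.265; 0.77 and 0.0325 without vector control 1). DNAJC11, of the mitochondrial inner membrane organizing complex, stood at 9.92, 10.02 and 9.25 FPKM in KO and 12.37, 3.28 and 4.31 FPKM in vector control. Vector control 1 was its highest library, and without it the fold change was 1.17 (adjusted p = 0.0126), against 0.67 with all libraries (adjusted p = 0.422). DNAJC30 and DNAJC11 were not called with any other library left out.

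DNAJC6, the auxilin that uncoats clathrin vesicles with HSPA8, stood at 1.49, 2.17 and 1.72 FPKM in KO and 0.96, 0.93 and 1.10 FPKM in vector control, with every KO library above every control (0.48, limma adjusted p = 0.177). DNAJC22 did likewise at 2.31, 1.71 and 2.04 FPKM in KO and 1.44, 1.59 and 1.32 FPKM in vector control (0.30, adjusted p = 0.331). DNAJC2, a partner of the ribosome-associated HSP70 system, stood at 4.23, 4.94 and 5.34 FPKM in KO and 7.17, 5.85 and 5.48 FPKM in vector control, every KO library lower (-0.29, adjusted p = 0.398). DNAJC5, the synaptic vesicle protein CSP, stood at 9.16, 9.14 and 9.96 FPKM in KO and 11.27, 8.51 and 7.81 FPKM in vector control (0.05).

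**Figure D4:**
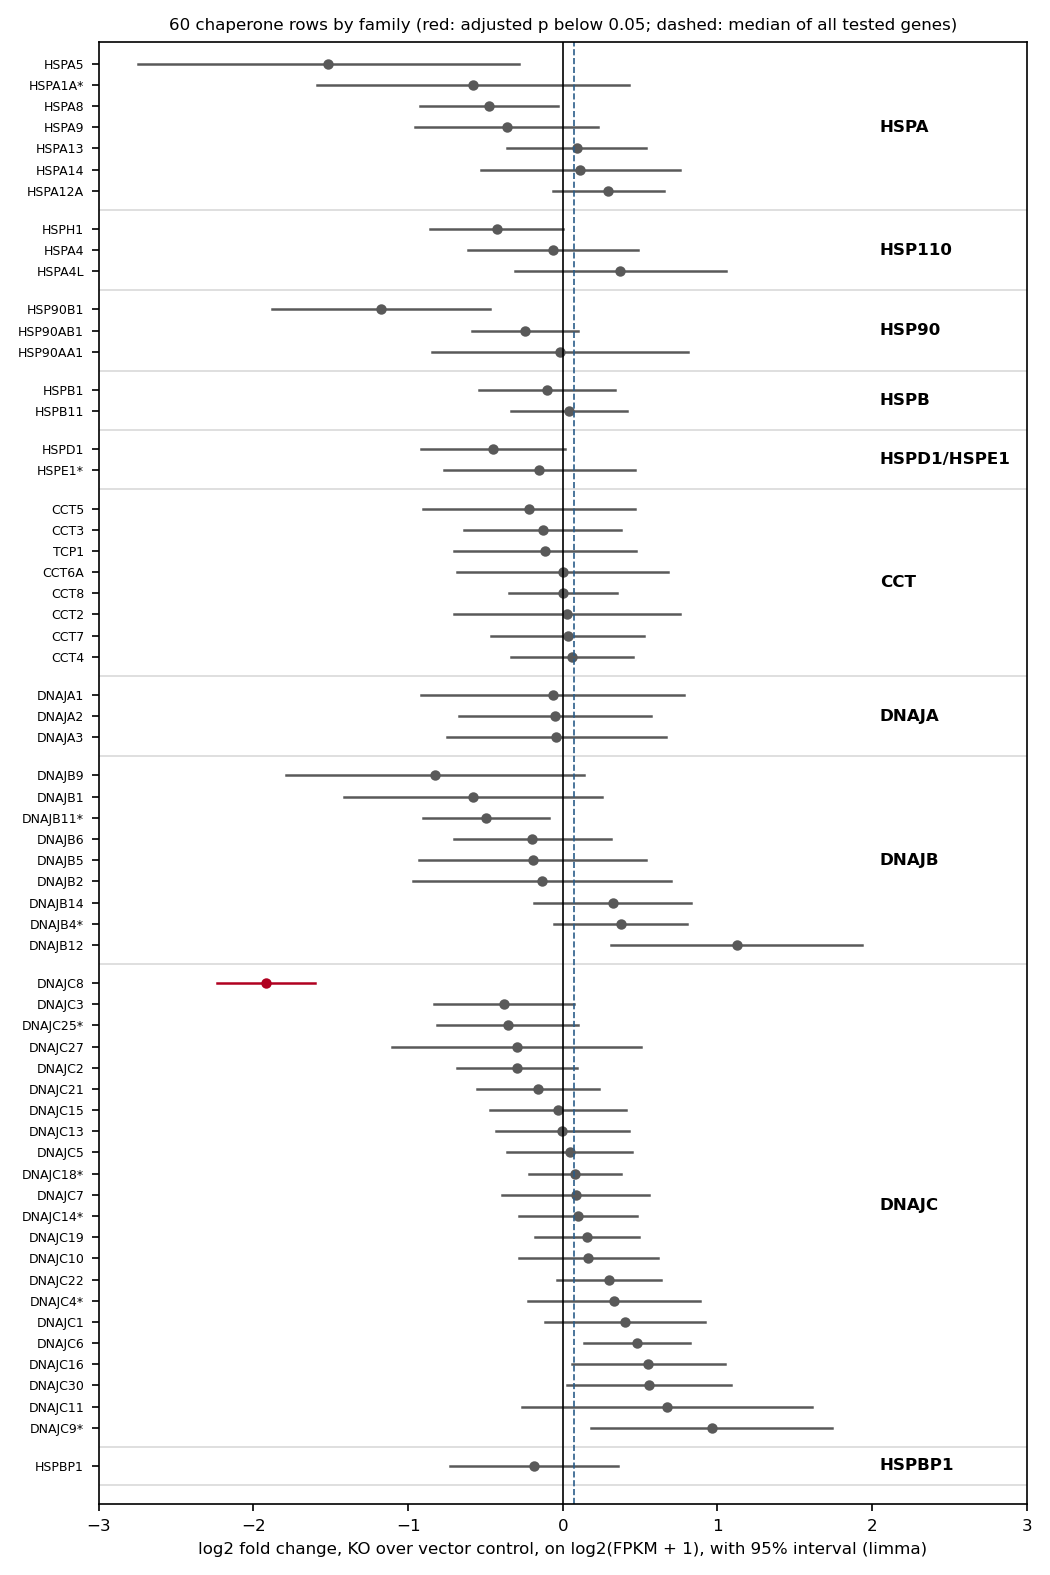
Log2 fold change, KO over vector control, of the 60 chaperone rows by family, with 95% intervals from limma on log2(FPKM + 1) (asterisk: joined row; dashed line: median of all tested genes, 0.08). The interval of DNAJC8 runs from -2.24 to -1.61, and the wider ones of HSPA5, HSP90B1 and DNAJB9 reach into it.

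The families had median log2 fold changes of -0.36 for 7 HSPA rows, -0.06 for 3 HSP110 rows, -0.24 for 3 HSP90 rows, -0.03 for 2 HSPB rows, -0.30 for HSPD1 and HSPE1, -0.05 for 3 DNAJA rows, -0.19 for 9 DNAJB rows and 0.09 for 22 DNAJC rows. No test was made of these medians. Without vector control 1 the HSP110 median was 0.15, the DNAJA median 0.11 and the CCT median 0.17, so the sign of the HSP110 and DNAJA medians turned. In that fit the DNAJB median was -0.45, the HSPA median -0.19 and the median of HSPD1 and HSPE1 -0.090. Without KO 1 the HSPA median was -0.13 and that of HSPD1 and HSPE1 -0.16. The HSP110 median was then 0.10 and the DNAJA median 0.11, so their signs turned here as well.

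Co-chaperones and other folding factors outside the rule were read from a list of 48 genes, of which 47 were tested. By limma 0 were called (1.35% of all tested genes) and 3, FKBP5, STIP1 and CHORDC1, had an unadjusted p below 0.05 (17.5% of all). Of the 47, 26 had a log2 fold change above 0 and 21 below, where 5703 and 3921 of the 9624 tested genes did, and their median was 0.02. FKBP5, an HSP90 co-chaperone of steroid receptors, stood at 6.51, 8.30 and 8.52 FPKM in KO and 5.08, 2.16 and 3.92 FPKM in vector control, every KO library higher (0.94, adjusted p = 0.153). STIP1, which hands clients from HSP70 to HSP90, stood at 20.76, 26.99 and 28.78 FPKM in KO and 39.99, 31.78 and 34.80 FPKM in vector control, every KO library lower (-0.47, adjusted p = 0.242). PFDN1, a subunit of prefoldin, which delivers clients to CCT, stood at 12.82, 14.90 and 6.53 FPKM in KO and 20.25, 16.14 and 16.89 FPKM in vector control (-0.66, adjusted p = 0.295). FKBP5, STIP1 and PFDN1 were chosen to be shown after their values were seen.

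The 22 matching rows below the limit were not tested. Of these, HSPB8, HSPB3, DNAJC5B and CCT8L2 were listed at 0 in all 6 libraries, and the others reached at most 1.21 FPKM in any library. Several are known for expression in testis or muscle, such as CCT6B, DNAJB13, HSPB7 and HSPB9. CCT6B, the testis form of CCT6A, stood at 0.89, 0.52 and 0.66 FPKM in KO and 0.56, 0.37 and 0.10 FPKM in vector control. DNAJC12, a J-domain partner of aromatic amino acid hydroxylases, stood at 0.35, 0.52 and 0.41 FPKM in KO and at 0.28 FPKM in vector control 1, and was listed at 0 in vector control 2 and 3.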

How the data were processed

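RNA from 3 LINC00901 knockout and 3 vector control libraries was measured as FPKM per gene, in 1 table deposited by the authors. Per the submitters' processing notes, cutadapt, FastQC, HISAT2 and the build hg19 were used, while the sources used here do not give the counting tool, its strand setting or its treatment of shared reads. Depth is unknown, so no counting error can be given. A search for steps of whole reads in low FPKM values could not settle it. That search used GENCODE 29 transcript lengths, which may differ from those behind the FPKM. The deposited FPKM were used without further scaling. Rows at 1 FPKM or above in at least 3 of 6 libraries (9624 of 18268) were tested with limma 3.58.1 (R 4.3.3, mean-variance trend) on log2(FPKM + 1), a scale that understates changes of low genes, with Benjamini-Hochberg adjustment over all tested rows and a threshold of 0.05. The code was tested on simulated data. The rule named DNAJC8, called rows, the most abundant row and the extremes of fold change in each family, and separated groups with a log2 difference of 0.5 or more. Other named genes were chosen after their values were seen. Members and lists were chosen with earlier results of these data known. Promoters came from RefSeq (GRCh38.p14), neighbours from GENCODE 29. Alternatives were other pseudocounts, filters and scalings, limma without trend or robust with array weights, a replicate block, and leaving out each library.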

Additional observations from a re-analysis of the deposited data

How the results depend on the processing

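Leaving out each library gave 25 to 1329 called genes, 1 to 8 called chaperone rows, 0 to 2 called co-chaperones, 0 to 1 called stress-inducible genes and 0 to 8 called ER chaperones, the highest each time without vector control 1, and DNAJB medians from -0.45 to -0.000373 and DNAJC medians from 0.053 to 0.17. Over all genes, 241 were called with no filter and 59 with a filter at 5 FPKM. Robust limma used array weights, 0.151 for vector control 1, 0.333 for KO 1 and 3.0 for vector control 2. It called 4020 genes, or 41.8%, and 25 chaperone rows, 10 co-chaperones, 7 stress-inducible genes and 12 ER chaperones. The medians of that fit were 0.16 for all chaperone rows, -0.022 for HSPA, 0.25 for HSP110, -0.46 for DNAJB and 0.19 for DNAJC. The DNAJB median was -0.54 with the filter at 5 FPKM, and median scaling gave -0.12 for HSPB and -0.065 for the co-chaperones. With the replicate number as a block, 7 genes and 0 chaperone rows were called (DNAJC8 log2 fold change -1.92, limma adjusted p = 0.0692). Same-numbered libraries deviated in opposite directions (r = -0.374, -0.153 and -0.264), and the labels give no pairing. Whether they shared a culture or a preparation cannot be told from these values. Directions turned under quantile normalization for HSPA4 (0.056), HSP90AA1 (0.18), HSPB1 (0.031), HSPB11 (-0.017) and DNAJA2 (0.054), and under median scaling for HSPB11 (-0.040) and CCT4 (-0.034). With array weights they turned for HSPA4 (0.25), HSP90AA1 (0.51), HSPE1;MOB4;HSPE1-MOB4 (0.20), CCT5 (0.19), DNAJA1 (0.47), DNAJA3 (0.27) and HSPBP1 (0.12). Leaving out a library gave log2 fold changes on both sides of 0, from -0.17 to 0.15 for HSPA4, -0.19 to 0.31 for HSP90AA1, -0.27 to 0.000999 for HSPB1, -0.027 to 0.15 for HSPB11, -0.29 to 0.12 for HSPE1;MOB4;HSPE1-MOB4, -0.36 to 0.042 for CCT5, -0.0095 to 0.19 for CCT4, -0.27 to 0.26 for DNAJA1, -0.26 to 0.16 for DNAJA2 and -0.37 to 0.14 for DNAJA3. The cause was not tested. HSPA12A, HSPA4L and DNAJB12 had no value with the filter at 5 FPKM.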
